A study of Homo sapiens with 12 samples.

Results

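The genes described here are 28 genes of cholesterol synthesis and sterol regulation, taken by name from a table of 22963 gene names. They comprise 7 genes of the mevalonate and isoprenoid steps, 11 genes from squalene synthase to cholesterol, called the squalene segment, 4 genes of sterol sensing and 6 genes of sterol transport, storage and export. All 28 were found in the table. Expression was measured by RNA sequencing in 12 libraries from 2 human hepatocellular carcinoma lines, in 4 groups of 3 biological replicates. PLC/PRF5 cells carried the empty vector or overexpressed EGR1, a zinc finger transcription factor, from a lentiviral pCDH plasmid with a CMV promoter. MHCC97H cells were parental, with the genotype WT, or were labelled EGR1 knockout after CRISPR/Cas9 editing with lentiCRISPR-v2. The parental libraries are also labelled Mock, and the labels do not say whether those cells were given a vector. The knockout lines were single clones, and the labels do not say which clone was sequenced. An effect of the edit, an effect of the editing vector and a trait of the clone therefore cannot be told apart. Both lines were grown in DMEM with fetal bovine serum.

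Hepatocytes make cholesterol from acetyl-CoA through mevalonate, farnesyl diphosphate, squalene and lanosterol. When membranes of the endoplasmic reticulum hold little sterol, SCAP carries the SREBP proteins to the Golgi, where they are cut to release transcription factors that switch on the enzymes of this route. When sterol is plentiful, INSIG proteins hold SCAP back. Oxysterols then activate the liver X receptors, which raise the exporters ABCA1 and ABCG1, the ubiquitin ligase MYLIP and SREBF1 itself. SREBF2 encodes the SREBP that mainly drives cholesterol synthesis, and SREBF1 encodes the forms that mainly drive fatty acid synthesis.

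Values are FPKM, fragment numbers scaled by gene length and by library size, so levels can be set beside each other between genes. The number of reads behind them is unknown, so values carry no counting error. Totals per library ran from 376335 to 437652 FPKM, and the lowest correlation of a library with a replicate was 0.993 to 0.996 across genes, which are not independent replicates. EGR1 rose from 1.81 ± 0.328 (SD, n = 3) FPKM in vector cells to 52.9 ± 3.10 in EGR1 PLC/PRF5 cells, by 4.27 ± 0.109 (SE) on the scale of log2(FPKM + 1), with an adjusted p of 1.58e-07 by limma. In MHCC97H cells EGR1 mRNA went against the label, although an edit can remove a protein without lowering its mRNA, and the study checked its knockout clones by western blot and sequencing of the DNA. It was 20.2, 23.1 and 21.2 FPKM in parental cells and 35.2, 50.3 and 32.9 in the libraries labelled knockout, a rise of 0.83 ± 0.148 (SE) with an adjusted p of 0.00126 by limma. With 3 libraries a group, the exact 2-sided permutation test gave p = 0.1 for EGR1 in each comparison, the smallest it can give. All 11 hepatocyte markers had a mean of at least 1 FPKM in both PLC/PRF5 groups, with sums between 2820 and 3399. In parental MHCC97H cells 6 of 11 did, with APOA2 listed at 0, ALB between 0.611 and 1.21 FPKM and sums between 1470 and 1854. In the libraries labelled knockout 9 of 11 did, with APOA2 also listed at 0 and sums between 2291 and 2721. Most of each sum came from the keratins KRT8 and KRT18. Their means were 1205 and 1134 FPKM in vector libraries and 1223 and 1183 in EGR1 libraries. In parental libraries they were 1102 and 517, and in the labelled knockouts 1775 and 635. Of 8 markers of blood, endothelial and stromal cells, only CD68 and PECAM1 reached a mean of 1 FPKM in any group, and the sum of the list was 31.6 to 42.0 FPKM in 3 groups and 57.1 to 62.6 in the labelled knockouts. The part of these markers in the results below was not tested.

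The route was transcribed at high levels in PLC/PRF5 cells and at lower levels in MHCC97H cells. The summed FPKM of the 18 synthesis enzymes was 1189, 1270 and 1179 in vector libraries and 981, 1044 and 1072 in EGR1 libraries. It was 457, 453 and 477 in parental MHCC97H libraries and 593, 588 and 634 in the libraries labelled knockout. No group overlapped another, and the order was vector, EGR1, labelled knockout, parental. As a share of all FPKM, these enzymes held 0.296% ± 0.00384 (SD, n = 3), 0.247% ± 0.00744, 0.143% ± 0.00292 and 0.122% ± 0.00242 in the same order. The single most abundant member was FDPS, farnesyl diphosphate synthase, at 186 to 193 FPKM in vector cells. At the other end, the exporter ABCG1 stood at 1.01 to 1.40 FPKM and MYLIP at 0.550 to 0.722. Of the 28 members, 15 had their highest group mean in vector PLC/PRF5 cells and 15 had their lowest in parental MHCC97H cells. The spread between replicates was small, with a median coefficient of variation over the members of 7.34%, 8.07%, 10.5% and 7.33% in vector, EGR1, parental and labelled knockout libraries, and its highest value was 33.9%, for IDI1 in vector cells.

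**Figure D1:**
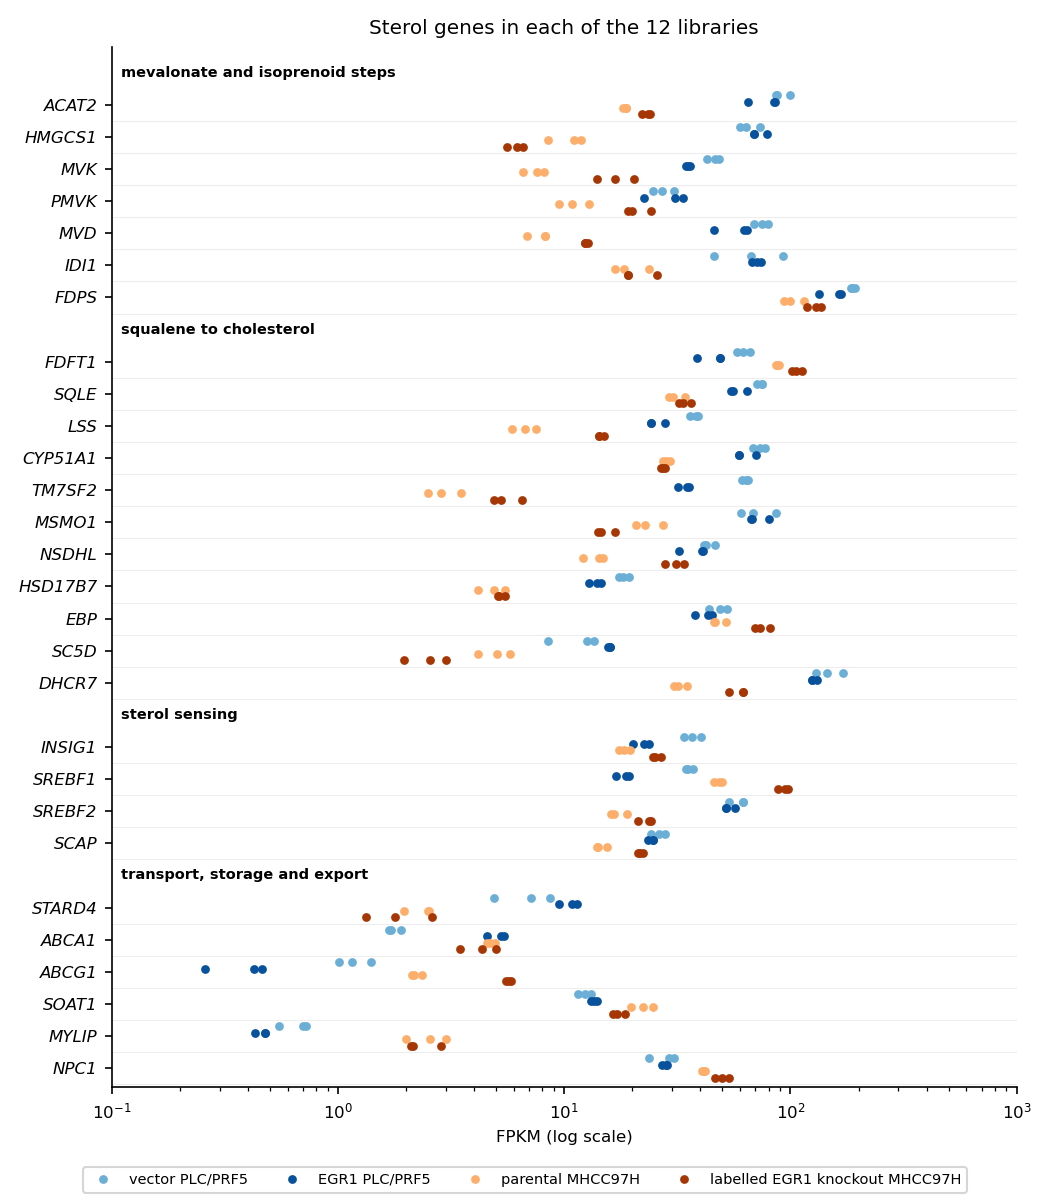
FPKM of the 28 genes in each of the 12 libraries on a log axis, 1 row a gene, with points coloured by group and rows ordered by role. Most enzymes lie higher in PLC/PRF5 cells (blue) than in MHCC97H cells (orange and brown), whereas SREBF1, FDFT1, NPC1, SOAT1, ABCG1 and MYLIP lie higher in MHCC97H cells.

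What does EGR1 overexpression do to the sterol genes of PLC/PRF5 cells? Of the 28 members, 26 passed a filter of a mean FPKM of at least 1 over the 6 libraries, and ABCG1 and MYLIP did not. By limma with Benjamini-Hochberg adjustment over 11671 genes, 10 members passed a threshold of 0.05. Of these, 8 fell, among them the regulators SREBF1 and INSIG1 and the enzymes TM7SF2 and LSS, and 2 rose, the exporter ABCA1 and the sterol carrier STARD4. In all 29.6% of the genes tested passed, with 19.2% higher and 10.4% lower. Of the members tested, 7.69% were called higher and 30.8% lower. The median difference of the members was -0.20 on the log2(FPKM + 1) scale, and that of all genes was 0.09.

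Among the members that passed the filter, SREBF1 showed the largest fall on the log2(FPKM + 1) scale. This gene occupies chromosome 17, minus strand, 17810399 to 17837002 (GRCh38). Its level was 34.7, 37.2 and 35.3 FPKM in vector libraries and 19.3, 17.0 and 18.7 in EGR1 libraries, so that the lowest vector library stood well above the highest EGR1 library. The difference was -0.93 ± 0.0853 (SE) with a limma adjusted p of 0.000237. SREBF2, at chromosome 22, plus strand, 41833079 to 41907308, was at 61.5, 53.3 and 61.6 FPKM against 51.9, 51.9 and 56.6. These groups overlapped, and the difference of -0.13 ± 0.0912 did not pass (limma adjusted p = 0.291). The ratio of SREBF1 to SREBF2 FPKM was 0.564 to 0.699 in vector libraries and 0.327 to 0.373 in EGR1 libraries, which do not overlap.

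INSIG1, the sterol-dependent anchor of SCAP, is itself a known target of the SREBPs. It measured 33.7, 40.1 and 36.8 FPKM in vector libraries and 23.6, 20.2 and 22.5 in EGR1 libraries. Every EGR1 library lay below every vector library, with a difference of -0.71 ± 0.0977 (limma adjusted p = 0.00164). SCAP, at 27.9, 24.3 and 26.3 against 23.5, 24.7 and 24.6 FPKM, gave overlapping groups and a difference of -0.10 ± 0.0850 (limma adjusted p = 0.387).

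**Figure D2:**
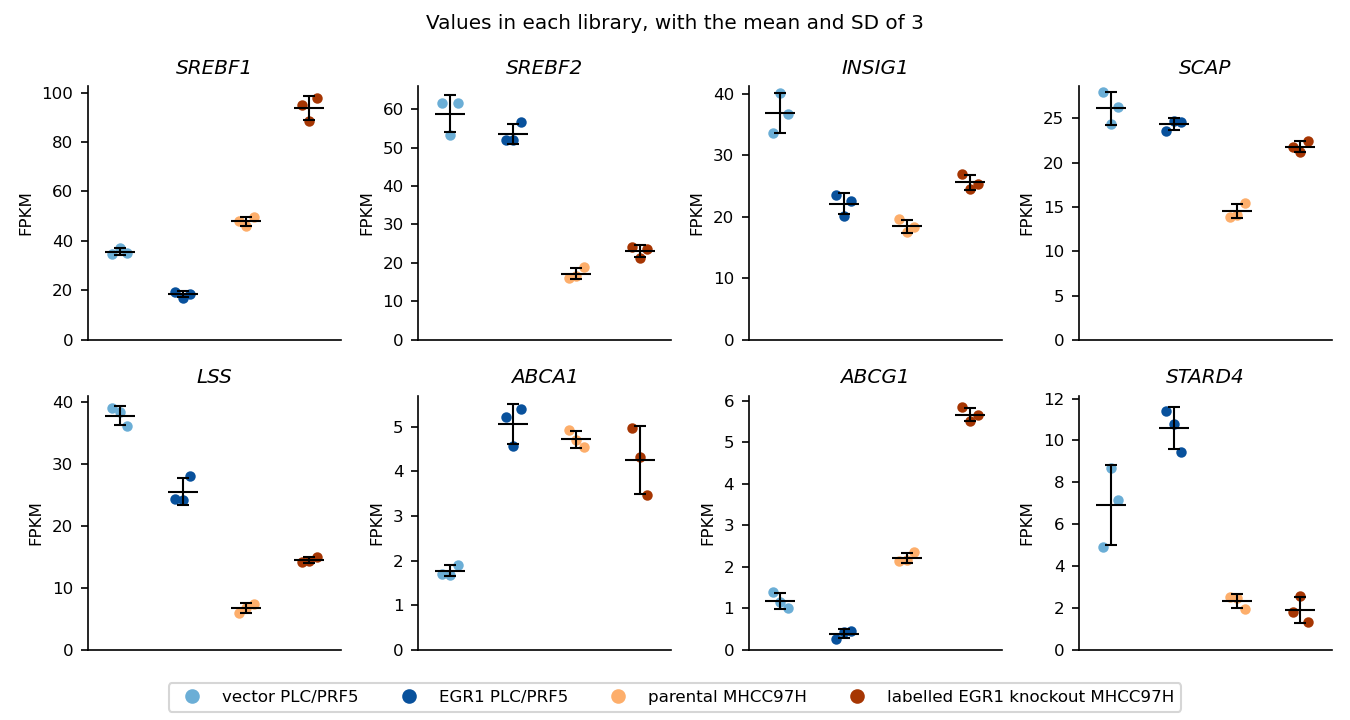
FPKM of 8 members in each library, with a bar at the mean and whiskers of 1 SD (n = 3). SREBF1 and ABCG1 are lower in EGR1 than in vector PLC/PRF5 cells and higher in the libraries labelled knockout than in parental MHCC97H cells, and ABCA1 climbs from at most 1.90 FPKM with the vector to at least 4.56 with EGR1.

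In the mevalonate and isoprenoid steps, 1 of 7 genes passed. MVK, mevalonate kinase, was at 48.4, 42.9 and 46.5 FPKM in vector libraries and 35.3, 36.1 and 34.4 in EGR1 libraries, and fell by 0.37 on the log2 scale (SE 0.0821, limma adjusted p = 0.0111). MVD, the decarboxylase that forms isopentenyl diphosphate, and FDPS were lower in every EGR1 library than in every vector library but did not pass. Their limma adjusted p was 0.0561 and 0.0605, and both passed as lower with common totals (0.0127 for each) and with quantile normalization (0.0265 and 0.0445). HMGCS1, the synthase that makes the precursor of mevalonate, was 59.9 to 73.0 FPKM against 69.0 to 78.5, with a difference of 0.14 ± 0.101. The steps from ACAT2 to FDPS therefore ranged from -0.38 to 0.14.

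From squalene synthase onwards, 5 of 11 genes fell and none rose. TM7SF2, a sterol reductase on chromosome 11 from 65111845 to 65116384, had the largest fall among the enzymes, from 61.2, 64.7 and 63.8 FPKM to 31.8, 35.6 and 35.0. Its difference was -0.87 ± 0.0825 (limma adjusted p = 0.00027), and the groups were far apart. LSS, which closes squalene epoxide into lanosterol and lies at chromosome 21, minus strand, 46188141 to 46228824, stood at 39.0, 38.3 and 36.1 FPKM and then at 24.3, 24.2 and 28. Its difference was -0.55 ± 0.0890 (limma adjusted p = 0.00307). FDFT1, squalene synthase, was at 66.0, 62.0 and 58.3 FPKM against 38.6, 48.6 and 48.6. HSD17B7, a reductase of the demethylation of sterols, was at 18.1, 19.3 and 17.5 against 14.6, 12.8 and 14. SQLE, squalene epoxidase, was at 71.3, 75.1 and 74.9 against 64.3, 54.5 and 55.9. None of the groups of these 3 genes overlapped, and their differences were -0.45 ± 0.109, -0.38 ± 0.0888 and -0.34 ± 0.0904, with limma adjusted p-values of 0.0151, 0.0136 and 0.0226. The other 6 enzymes of this segment did not pass and ranged from -0.21 for CYP51A1 to 0.45 for SC5D, the sterol desaturase.

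Of the 6 transport genes 4 were tested, and ABCA1 and STARD4 rose. ABCA1, which loads cholesterol onto apolipoproteins at the cell surface and lies at chromosome 9, minus strand, 104781002 to 104928237, rose from 1.71, 1.68 and 1.90 FPKM to 5.23, 4.56 and 5.39. The difference was 1.13 ± 0.101 (limma adjusted p = 0.000198), at the percentile 99.2 of all genes tested. ABCG1, which passes cholesterol on to lipoprotein particles, was 1.40, 1.15 and 1.01 FPKM in vector libraries and 0.259, 0.425 and 0.461 in EGR1 libraries. The groups do not overlap, with every EGR1 library lower. It was under the filter, and a fit without the filter gave a difference of -0.66 ± 0.0944 with a limma adjusted p of 0.0110. STARD4, a cytosolic sterol carrier, was at 4.90, 8.69 and 7.16 FPKM against 11.4, 10.8 and 9.46, a rise of 0.57 ± 0.170 (limma adjusted p = 0.0341). SOAT1, which esterifies cholesterol for storage, and NPC1, which moves it out of lysosomes, gave overlapping groups and differences of 0.13 and 0.01. MYLIP was at 0.550 to 0.722 FPKM in vector libraries and 0.428 to 0.474 in EGR1 libraries, which do not overlap, and gave -0.18 without the filter (limma adjusted p = 0.0836).

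Altogether 15 of the 26 tested members had groups that did not overlap, against 47.7% of all genes tested. When 1 library was left out, the calls of MVK, LSS, TM7SF2, INSIG1, SREBF1 and ABCA1 passed in each of 6 fits, whereas STARD4 lost its call in 5. SQLE lost it without vector replicate 3 or EGR1 replicate 2 or 3, HSD17B7 without EGR1 replicate 2, and FDFT1 without vector replicate 1.

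The differences followed the base composition of transcripts. Across the 26 members Spearman's rho between GC content and the difference was -0.571, against -0.447 across 10993 genes, and the points share the same libraries. The same trend was stronger and of opposite sign in MHCC97H cells, at 0.813 across the 28 members and 0.769 across 10968 genes. GC content and length accounted for 18.2% of the variance of the differences in PLC/PRF5 cells and 54.6% in MHCC97H cells. Each comparison was therefore also fitted after a smooth trend on GC content and length had been removed from every library, which takes out any change that runs with base composition whatever its source. In PLC/PRF5 cells this left 1 member higher, against 16.7% of all genes, and 12 lower, against 18.1%. All 8 falls kept their call, with SREBF1 at -0.82, INSIG1 at -0.79, TM7SF2 at -0.78 and LSS at -0.55. ABCA1 remained higher at 0.92 (SE 0.0843, limma adjusted p = 0.000177). STARD4, whose transcript has the lowest GC content of the members at 34.2%, dropped to 0.06 (limma adjusted p = 0.59). FDPS, CYP51A1, MSMO1 and SOAT1, which had not passed before, were called lower with the correction, and MSMO1 and SOAT1 changed sign in doing so.

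**Figure D3:**
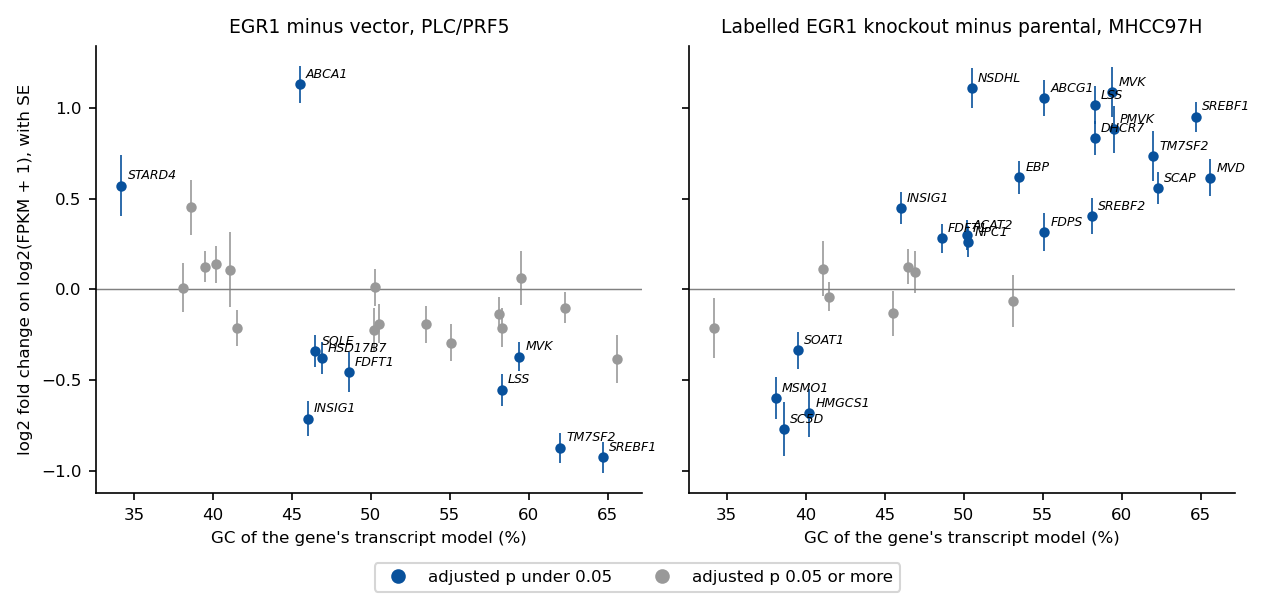
Difference of each tested member on the log2(FPKM + 1) scale, with its SE, against the GC content of its transcript model in percent, for both EGR1 comparisons. The differences decline with GC content in PLC/PRF5 cells (rho -0.571, 26 genes) and climb with it in MHCC97H cells (rho 0.813, 28 genes).

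In MHCC97H cells, the question was how the cells labelled EGR1 knockout differ from parental cells, whose EGR1 mRNA was the lower of the pair. All 28 members passed the filter. By limma 21 passed the threshold, 17 higher and 4 lower in the libraries labelled knockout, among 66.3% of 11577 genes, of which 34.8% were higher and 31.5% lower. The 17 included all 4 sensing genes, 5 of 7 genes of the mevalonate segment, 6 of 11 of the squalene segment and 2 of 6 transport genes. The 4 that fell were HMGCS1, MSMO1, SC5D and SOAT1. Groups did not overlap for 21 of the 28 members, against 71.8% of all genes tested. The median difference was 0.31 for the members and 0.02 for all genes.

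SREBF1 stood at 48.1, 46.0 and 49.7 FPKM in parental libraries and at 95, 88.4 and 97.8 in the libraries labelled knockout. The groups were far apart, with a difference of 0.95 ± 0.0821 (limma adjusted p = 3.99e-05). SREBF2 was at 16.1, 16.6 and 18.9 FPKM against 24.2, 21.2 and 23.7, a difference of 0.40 ± 0.0983 (limma adjusted p = 0.00573). The ratio of SREBF1 to SREBF2 FPKM was 2.63 to 2.99 in parental libraries and 3.92 to 4.16 in the libraries labelled knockout. INSIG1 was at 19.6, 17.5 and 18.4 against 26.9, 24.6 and 25.3 FPKM, with a difference of 0.45 ± 0.0878 (limma adjusted p = 0.00192). SCAP was at 13.9, 14.1 and 15.4 against 21.7, 21.2 and 22.4, with a difference of 0.56 ± 0.0862 (limma adjusted p = 0.000572). Each of these 4 genes was higher in every library labelled knockout than in every parental library.

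With GC content and length corrected, SREBF1 and INSIG1 remained higher, at 0.34 ± 0.0586 and 0.59 ± 0.0593 (limma adjusted p = 0.00222 and 0.000186). SREBF2 and SCAP did not, at -0.0085 and 0.0043 (limma adjusted p = 0.915 and 0.958).

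Among the enzymes, NSDHL, a dehydrogenase of sterol demethylation, rose most on the log2(FPKM + 1) scale, with MVK within its SE. It was at 12.1, 14.3 and 14.9 FPKM in parental libraries and 31.2, 27.8 and 33.7 in the libraries labelled knockout. MVK was at 6.59, 8.14 and 7.55 against 14, 16.7 and 20.3, and LSS at 5.88, 6.70 and 7.47 against 14.2, 14.3 and 15.0. All 3 genes had clear gaps between their groups. Their differences were 1.11 ± 0.111, 1.09 ± 0.138 and 1.02 ± 0.105, with limma adjusted p-values of 6.64e-05, 0.00021 and 7.78e-05. With the correction these became 0.90, 0.56 and 0.59, and each still passed.

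PMVK, which phosphorylates the product of MVK, was at 9.49, 10.8 and 12.8 FPKM against 19.2, 20.0 and 24.3. DHCR7, the reductase of the last step of its branch, was at 30.6, 31.8 and 35.0 against 61.4, 53.3 and 61.6. EBP, a sterol isomerase, was at 46.6, 46.1 and 51.8 against 73.3, 69.4 and 80.8. None of these groups overlapped. The differences were 0.88 ± 0.130, 0.83 ± 0.0949 and 0.62 ± 0.0919 (limma adjusted p = 0.000442, 0.000119 and 0.000469), and 0.23, 0.34 and 0.24 with the correction, which still passed.

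Other enzymes depended on the correction. TM7SF2 was at 2.49, 2.85 and 3.49 FPKM against 6.53, 4.89 and 5.25, a difference of 0.73 ± 0.137 (limma adjusted p = 0.00154) that became 0.04 when corrected. MVD was at 6.85, 8.26 and 8.26 against 12.3, 12.3 and 12.7, a difference of 0.62 ± 0.102 (limma adjusted p = 0.00081) that became -0.14. Transcripts of both are rich in GC, at 62.0% and 65.6%. HMGCS1 was at 11.9, 11.0 and 8.5 against 6.57, 6.15 and 5.60, a difference of -0.68 ± 0.130 (limma adjusted p = 0.00171) that became -0.17 and no longer passed. SC5D was at 5.74, 5.02 and 4.14 against 2.55, 3.01 and 1.96. Its difference of -0.77 ± 0.148 (limma adjusted p = 0.00178) became -0.22 and still passed, at a limma adjusted p of 0.0448. MSMO1, at 27.2, 22.8 and 20.7 FPKM against 16.8, 14.6 and 14.1, had a difference of -0.60 that became -0.04. These last 3 genes have transcripts of 38.1% to 40.2% GC.

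Of the smaller rises, FDPS was at 93.6, 100 and 115 FPKM against 118, 130 and 137. ACAT2, the thiolase that starts the route, was at 18.2, 18.7 and 18.8 against 22.0, 23.5 and 23.9. FDFT1 was at 87.2, 86.7 and 89.4 against 106, 102 and 113. Their differences were 0.32, 0.30 and 0.28, and all 3 lost their call when libraries were scaled to a common total or quantile normalized. The common total moved the median of all genes by -0.13. Under it 13 of 28 members were called higher and 4 lower, against 3150 and 4447 of 11591 genes in all. With the GC and length correction ACAT2 and FDFT1 passed as higher, at 0.20 and 0.25, and FDPS passed as lower at -0.17. CYP51A1, IDI1, SQLE and HSD17B7 had overlapping groups and differences between -0.04 and 0.13. With the correction the first 3 of them passed as higher, at 0.38, 0.57 and 0.24.

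ABCG1, at chromosome 21, plus strand, 42199689 to 42297244, led the transport genes. It was at 2.13, 2.16 and 2.35 FPKM in parental libraries and at 5.84, 5.51 and 5.67 in the libraries labelled knockout. These groups lay far apart, with a difference of 1.06 ± 0.0996 (limma adjusted p = 5.37e-05) and of 0.70 with the correction (limma adjusted p = 0.000203). ABCA1 was at 4.92, 4.70 and 4.54 FPKM against 4.97, 4.32 and 3.46. These overlapped, with a difference of -0.13 ± 0.126 (limma adjusted p = 0.374). NPC1 was at 41.7, 40.6 and 41.6 against 53.5, 46.3 and 49.7, a difference of 0.26. This became a difference of 0.11 with common totals and of 0.037 with quantile normalization, and lost its call under each. SOAT1 was at 24.6, 22.3 and 19.8 against 18.6, 17.1 and 16.4, a difference of -0.34 that became 0.29 with the correction and passed in both directions (limma adjusted p = 0.0175 and 0.0188). STARD4 and MYLIP gave overlapping groups and differences of -0.21 and -0.06, and with the correction 0.63 and -0.43 (limma adjusted p = 0.00134 and 0.0499).

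With the correction 17 members were called higher, against 24.4% of all genes, and 3 lower, against 22.2%. These are not the same genes as before, since 13 of the 21 calls were kept in the same direction. Across every alternative fit, including each library left out, 9 members kept their call, all of them higher: MVK, PMVK, LSS, NSDHL, EBP, DHCR7, INSIG1, SREBF1 and ABCG1. The share of all called genes that kept their call in every fit was not computed. FDPS lost its call without parental replicate 1 or 2 or labelled knockout replicate 3, and so did SOAT1. NPC1 lost it without parental replicate 2 or labelled knockout replicate 1, and FDFT1 without parental replicate 2.

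**Figure D4:**
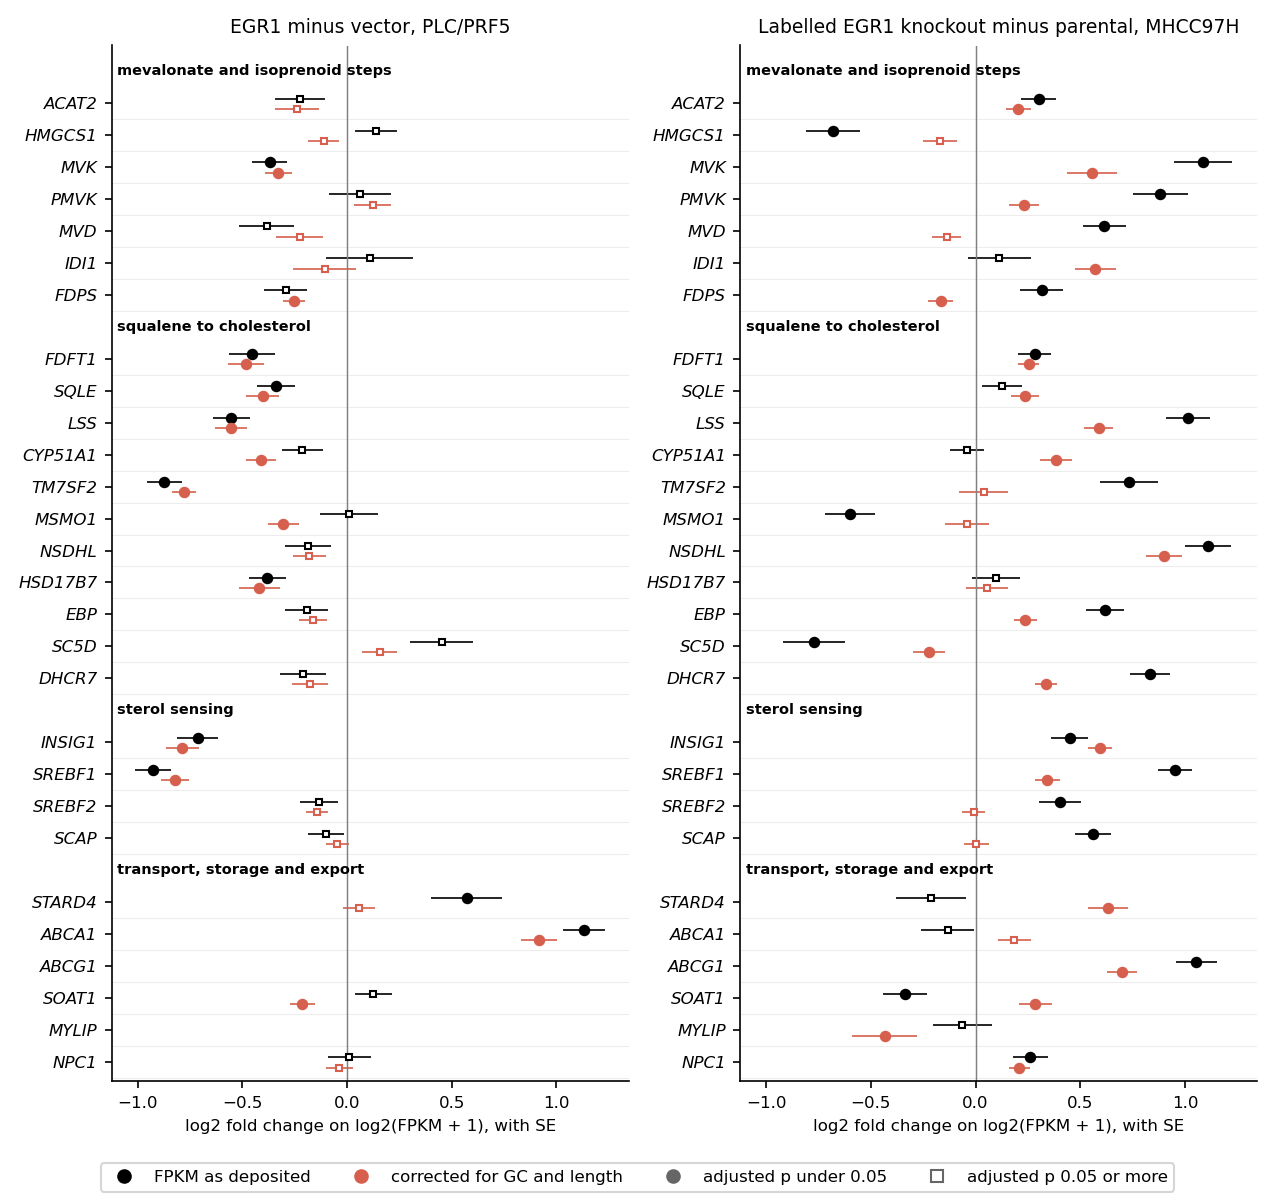
Differences of the members on the log2(FPKM + 1) scale with their SE in both EGR1 comparisons, as deposited (black) and corrected for GC content and length (red), with filled circles for an adjusted p under 0.05 by limma and open squares otherwise. SREBF1, INSIG1, LSS and MVK lie below 0 in PLC/PRF5 cells and above 0 in MHCC97H cells under both fits, and ABCG1 and MYLIP have no point on the left because they were under the filter.

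The 2 EGR1 comparisons share no library, so their calls can be set side by side. Of 26 members tested in both, 10 passed in PLC/PRF5 cells and 20 in MHCC97H cells, and 6 passed in both. These are 60.0% of the first list and 30.0% of the second, against 74.4% and 32.0% for all genes. All 6 (MVK, FDFT1, LSS, TM7SF2, INSIG1 and SREBF1) fell in EGR1 PLC/PRF5 cells and rose in the labelled knockouts. Of the 2225 genes that passed in both comparisons, 83.6% had opposite signs, so opposite signs were common among all genes. With the correction 9 members passed in both, 8 of them with opposite signs (MVK, FDFT1, SQLE, LSS, CYP51A1, INSIG1, SREBF1 and SOAT1), and FDPS was lower in both. The share with opposite signs among all genes was not computed with the correction, so these counts have no background. EGR1 mRNA was itself higher in both comparisons, so that opposite signs here do not stand for opposite levels of EGR1 mRNA.

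Promoter sequence is shown for the members whose start regions hold an EGR1 or sterol regulatory motif, and for TM7SF2, the enzyme with the largest fall in PLC/PRF5 cells. The RefSeq promoter table (GRCh38.p14) holds 29 windows for 24 members, each of 250 bases before to 50 bases after a start site. Every window was searched on both strands for the EGR1 motif GCGNGGGCG, the sterol regulatory element TCACNCCAC of the SREBP proteins, and the CCAAT box to which the NF-Y factor binds. Capitals mark the motifs, and the CCAAT box reads ATTGG on the other strand. Positions are counted from the start site, and each sequence is given 5′ to 3′ on the strand of the gene.
LSS, chr21:46228889-46228944, minus strand, -170 to -115: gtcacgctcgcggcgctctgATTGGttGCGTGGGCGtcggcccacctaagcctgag
INSIG1, chr7:155297784-155297812, plus strand, -94 to -66: tgggcggtgcGCGCGGGCGgtgggtaggc
EBP, chrX:48521693-48521721, plus strand, -115 to -87: ggcgccacgcGCGGGGGCGgggctagagg
SREBF2, chr22:41832952-41833023, plus strand, -153 to -82: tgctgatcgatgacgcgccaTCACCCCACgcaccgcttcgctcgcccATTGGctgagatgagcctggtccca
TM7SF2, chr11:65111778-65111822, plus strand, -94 to -50: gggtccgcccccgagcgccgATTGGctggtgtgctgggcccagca

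The EGR1 motif was in the windows of EBP, INSIG1 and LSS, 10.3% of the windows of members, against 9.43% of 35116 promoters and 14.9% of 13547 promoters of genes with measurable expression. LSS and INSIG1 fell in PLC/PRF5 cells and were higher in the libraries labelled knockout, and EBP was called only in the latter. The CCAAT box was in 69.0% of the members' windows and in 18 of 24 members, against 34.6% of all promoters. The sterol regulatory element in this spelling was in the window of SREBF2 alone, against 1.13% of all promoters. A match is a stretch of letters and not a binding site, and SREBF1 had none of the 3 motifs in its windows.

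Parental MHCC97H and vector PLC/PRF5 cells were compared as parental or empty vector controls. These are different lines with different handling, and line and handling cannot be told apart. The comparison uses the controls of both EGR1 comparisons. All 28 members passed the filter, MYLIP only through its level in MHCC97H cells. By limma 27 passed, 7 higher, MYLIP included, and 20 lower in MHCC97H cells, among 79.8% of 12046 genes, with 38.8% higher and 40.9% lower. Groups did not overlap for 27 members, against 81.0% of all genes tested. The median difference was -1.24 for the members and -0.02 for all genes. With the GC and length correction 8 members were higher, against 39.4% of all genes, and 20 lower, against 42.1%.

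All 7 genes of the mevalonate segment and 9 of 11 of the squalene segment were lower in MHCC97H cells. The largest differences were TM7SF2 at -4.03 ± 0.107, MVD at -3.11 ± 0.0991, HMGCS1 at -2.54 ± 0.129, MVK at -2.48 ± 0.0984 and LSS at -2.34 ± 0.0993. For TM7SF2 this was a level of 61.2 to 64.7 FPKM in vector cells against 2.49 to 3.49 in parental MHCC97H cells. FDFT1 was the enzyme that went the other way, at 58.3 to 66.0 against 86.7 to 89.4 FPKM. EBP was level between the lines at 0.0020 ± 0.0924 (limma adjusted p = 0.985), although with the correction it passed as higher at 0.45.

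The sensors split. SREBF2 was lower by 1.72 on the log2 scale in MHCC97H cells (a difference of -1.72 ± 0.0965), SREBF1 was higher, at 0.41 ± 0.0748, and INSIG1 and SCAP were lower, at -0.96 and -0.81. Of the transport genes ABCA1 was higher at 1.05 ± 0.0905, SOAT1 at 0.80 ± 0.103, and NPC1 and ABCG1 at 0.56 each, and STARD4 was lower at -1.23. MYLIP, at 0.550 to 0.722 FPKM in vector cells and 2.00 to 3.00 in parental MHCC97H cells, gave 1.08 ± 0.119, but it was tested only because of its level in MHCC97H cells, so its call is no support. All 27 calls were kept, in the same direction, in each alternative fit, and the share kept among all genes was not computed.

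**Figure D5:**
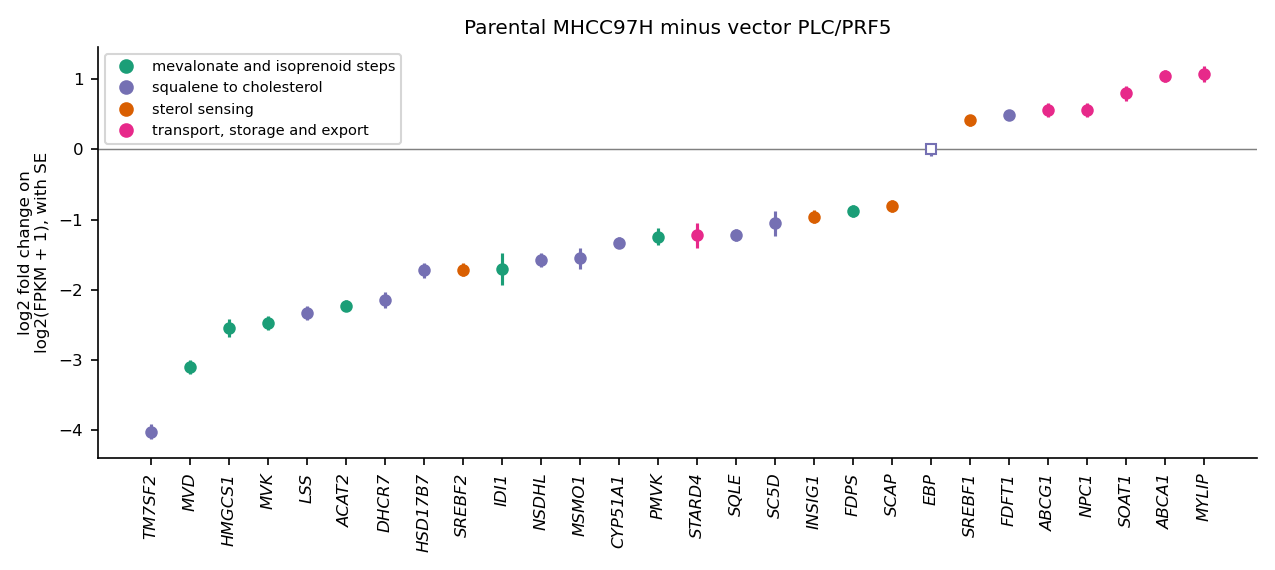
Difference of each member between parental MHCC97H and vector PLC/PRF5 libraries on the log2(FPKM + 1) scale, with its SE, ordered by size and coloured by role. The 20 genes that were lower in MHCC97H cells include 16 synthesis enzymes, and those that were higher are FDFT1, SREBF1 and genes of transport, storage and export, with MYLIP plotted although it passed the filter only through MHCC97H cells.

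A list of 49 other genes of the same biology was examined beside the members: processing of the SREBPs, branches of the mevalonate route, sterol traffic, and liver X receptor and oxysterol genes. In PLC/PRF5 cells 40 were tested, and 5 were higher and 8 lower, against 19.2% and 10.4% of all genes. With the GC and length correction this became 4 higher and 16 lower, against 16.7% and 18.1%. In MHCC97H cells 41 were tested, and 11 were higher and 18 lower in the labelled knockouts, against 34.8% and 31.5% of all genes, which became 8 and 5 with the correction, against 24.4% and 22.2%. Between the lines 42 were tested, and 7 were higher and 25 lower in MHCC97H cells, against 38.8% and 40.9% of all genes. With the correction these became 11 and 30, against 39.4% and 42.1%. Of the higher genes, CYP27A1 and GRAMD1B passed the filter only through their level in MHCC97H cells, so their calls are no support.

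Of the listed genes, 39 were tested in both EGR1 comparisons. Of these 7 passed in both, against 2225 of 10369 genes in all, and 6 of the 7 are described. LPCAT3, a phospholipid acyltransferase under liver X receptor control, was at 25.7, 19.3 and 22.7 FPKM in vector libraries and 11.9, 12 and 11.9 in EGR1 libraries. It was at 16.3, 17.9 and 18.2 in parental libraries and 30.9, 28.3 and 32.1 in those labelled knockout. The groups do not overlap in either line, and the differences were -0.86 ± 0.108 and 0.77 ± 0.0911 (limma adjusted p = 0.0011 and 0.000146), or -0.85 and 0.51 with the correction. The sterol-binding proteins OSBPL8 and OSBPL9 showed the reverse, at 1.02 and 0.39 in PLC/PRF5 cells and -1.20 and -0.47 in MHCC97H cells, where neither passed with the correction. In PLC/PRF5 cells OSBPL8 still passed with it, at 0.51, and OSBPL9, at 0.18, did not. The same direction in both comparisons was seen for EBPL at -0.30 and -0.53, LIPA, the lysosomal lipase that frees cholesterol from its esters, at -0.57 and -0.38, and DHDDS, which branches off to dolichol, at 0.34 and 0.34. With the correction EBPL passed in both, at -0.33 and -0.65, whereas LIPA and DHDDS, at -0.051 and 0.11, no longer passed in MHCC97H cells. The liver X receptors themselves, NR1H3 and NR1H2, were chosen for mention after their values were seen. They gave differences of -0.24 and 0.01 in PLC/PRF5 cells, which did not pass (limma adjusted p = 0.0791 and 0.947), and rose by 0.72 and 1.03 (limma adjusted p = 0.000183 and 5.56e-05) in the libraries labelled knockout, or by 0.34 each with the correction. Between the lines the largest difference in the list was that of CYP27A1, the sterol hydroxylase that makes an oxysterol. It was listed at 0.00 to 0.0588 FPKM in vector cells and at 46.9 to 52.5 in parental MHCC97H cells. CYP27A1 was tested only because of its level in MHCC97H cells, so its rank and call are no support. The largest fall was that of ERG28, a scaffold of sterol demethylation, at -1.99 ± 0.0997.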

How the data were processed

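RNA of 3 biological replicates per group was converted to libraries with oligo(dT) selection and duplex-specific nuclease, which removes abundant cDNA, and run on an Illumina NovaSeq sequencer. For the 12 libraries the authors deposited FPKM values. The submitters' processing notes name StringTie and hg38, and the aligner and strand setting are not given in the sources used here. Of 22963 names, 3031 are assembled loci. All columns were used.

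Values were analysed as log2(FPKM + 1) in genes whose FPKM averaged 1 or more over the 6 libraries compared, with limma 3.58.1 (R 4.3.3, intensity trend), 2-sided tests, Benjamini-Hochberg adjustment over all genes and a threshold of 0.05. A fold change on this scale understates changes of low genes. FPKM carry no depth, so count tests were not used. EGR1 was also tested by exact permutation. For the correction, a natural spline (df 5) on GC content and on log length of GENCODE 29 transcripts was removed from each library, for the 19800 names matched. The other alternatives were a pseudocount of 0.1, no filter, common totals, quantile normalization, no trend, all 12 libraries in a fit, the replicate number as a block, stricter thresholds and each library left out. The fits were tested on simulated data.

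Members and lists were chosen with earlier results of these data known. All 28 members are accounted for: those past the threshold with groups that do not overlap in an EGR1 comparison have their value in every library, the 12 largest differences of each comparison have their statistics, and SREBF1, SREBF2, INSIG1 and SCAP have both. Between the lines the 5 largest differences in each direction are named, and listed genes past the threshold in both EGR1 comparisons, or the largest rise and fall otherwise. The result of 1 listed gene is not reported here. Some members share exon sequence with other genes, whose reads FPKM may split: ACAT2 with SOD2 (1141 bases) and TCP1, MVK with MMAB (306), SREBF1 with RAI1 (556) and NPC1 with RMC1 (604) on the opposite strand, CYP51A1 with AC000120.2 (2844) and TM7SF2 with VPS51 (16) on the same strand.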

Additional observations from a re-analysis of the deposited data

How the results depend on the processing

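Most refitted values held under the alternatives, pooled over the EGR1 comparisons and the one between the lines. The member calls kept in every alternative fit were 6 of 10 in PLC/PRF5 cells and 9 of 21 in MHCC97H cells. Between the lines all 27 were kept. The share of calls kept in every fit was not computed for all genes, so these counts have no background. Of 1230 fold changes of members refitted, 1119 kept their direction and side of the threshold, 40 lost their call, 26 gained it and 45 changed sign, of which 9 belonged to members that passed in the reported fit. All 45 refitted values of EGR1 kept direction and call. At an adjusted p under 0.01 the PLC/PRF5 comparison called 5 members, 4 listed sterol genes and 1468 genes in all, and with a change of at least 2-fold 1, 1 and 206. At 2-fold the MHCC97H comparison called 4, 2 and 1029, and that between the lines 11 listed genes and 4431 genes in all. Without a filter 8 of 47 listed genes passed in PLC/PRF5 cells, against 2963 of 19664 genes in all. With the GC and length correction 20 of 40 listed genes passed there, against 3826 of 10993 genes in all. In MHCC97H cells 13 of 41 did, against 5114 of 10968. With the replicate block added these were 21 and 13 listed genes, against 3503 and 5154 genes in all. Leaving out 1 library gave 7 to 11 members, 4 to 14 listed genes and 1944 to 4007 genes in all in PLC/PRF5 cells (1944 without EGR1 replicate 2, 2213 without EGR1 replicate 3, 2240 without vector replicate 3), 17 to 22, 22 to 30 and 6446 to 7541 in MHCC97H cells, and 27, 27 to 31 and 8946 to 9574 between the lines.

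Signs of differences changed as follows, on the log2 scale. In PLC/PRF5 cells MSMO1 was -0.019 and NPC1 -0.016 with common totals, NPC1 -0.017 with quantile normalization, and with the GC and length correction, with or without the replicate block, HMGCS1 was -0.11, IDI1 -0.11, MSMO1 -0.30, SOAT1 -0.21 and NPC1 -0.036. In MHCC97H cells IDI1 was -0.032, SQLE -0.023 and HSD17B7 -0.032 with common totals, and FDFT1 -0.057, SQLE -0.058 and MYLIP 0.046 with quantile normalization. With the correction, with or without the block, MVD was -0.14, FDPS -0.17, CYP51A1 0.38, SREBF2 -0.0085, STARD4 0.63, ABCA1 0.18 and SOAT1 0.29. Leaving out 1 library gave ranges that cross 0 for PMVK (-0.053 to 0.23), IDI1 (-0.15 to 0.35), MSMO1 (-0.10 to 0.15) and NPC1 (-0.092 to 0.080) in PLC/PRF5 cells, for IDI1 (-0.022 to 0.25) and MYLIP (-0.17 to 0.034) in MHCC97H cells, and for EBP (-0.067 to 0.061) between the lines. The cause was not tested. The share of called genes that were higher was 64.8% in PLC/PRF5 cells, 59.3% with common totals, 46.0% with quantile normalization and 48.0% with the correction, and in MHCC97H cells it was 52.5% and 41.5% with common totals.

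Whether the replicate numbers pair the samples was not settled. Within the 2 EGR1 comparisons, the deviations of libraries with the same number were correlated between -0.132 and 0.467. Those of libraries with different numbers were correlated between -0.408 and 0.381. With 3 libraries a group these values cannot decide it. With the number as a block, 12 members, 10 listed genes and 3253 genes in all passed in PLC/PRF5 cells, 21, 30 and 7987 in MHCC97H cells, and 27 members and 9249 genes in all between the lines. FPKM give no depth, so how far low levels such as those of ABCG1 and MYLIP limit these calls is unknown.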
